A study of Drosophila melanogaster with 6 samples.

Results

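Hemocyte marker genes were examined in whole heads of Drosophila melanogaster on 6 Affymetrix Drosophila Genome 2.0 arrays. The 9 genes are Hml, NimC1, eater, NimC4, Col4a1, vkg, Pxn, PPO1 and PPO2, taken by gene symbol from the platform annotation, out of 11982 genes that have a probe set of their own. They have 10 probe sets among the 18769 tested, and for Pxn, which has a pair of them, the brighter one stands for the gene. The flies were mated females of genotype w1118, a white-eyed laboratory strain, mated for 48 hours with isogenic males. In the high fat diet group, females then spent 7 days on medium with 20% (w/v) coconut oil. In the normal diet group they spent 7 days on the same yeast, sucrose and cornmeal medium without it. Both groups were kept at 23 °C on their diets. Each group has 3 arrays, described as biological replicates, and each array carries RNA pooled from 25 to 50 heads. Neither group is a genetic model of hemocyte loss or gain, no cells were sorted, and adult age beyond the collection of young virgins is not given in the labels.

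Hemocytes are the blood cells of the fly. Most are plasmatocytes, macrophage-like cells that engulf microbes and dying cells, help clot the hemolymph and deposit extracellular matrix. A smaller class, the crystal cells, stores prophenoloxidases, the inactive precursors of the enzymes that make melanin at wounds. Lamellocytes, large flat cells, appear in larvae after attack by parasitoid wasps. In adults hemocytes circulate and also sit at fixed sites, and head RNA contains their transcripts together with those of brain, eye, fat body, muscle, glia and cuticle. Several of the 9 genes are not exclusive to hemocytes: the collagen IV genes are also strongly expressed by the fat body.

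Of the 9 genes, 8 were above background on all 6 arrays, so that most of these transcripts were measurable in every head sample. Background was the level that 95% of 50 control probe sets for proteins of other organisms stayed under, between 15.2 and 21.8 signal units. NimC4 was at or below it on 5 arrays. All 9 symbols matched a current gene in the RefSeq table of the Release 6 assembly. The defining plasmatocyte genes Hml, NimC1 and eater and the defining crystal cell genes PPO1 and PPO2 were all measured. Signal is on the linear scale of the deposited table, and a probe set's signal depends on its own probes, so no level is set against that of another gene.

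The arrays reached similar sensitivity, with 65.3% to 70.0% of probe sets above background, and were correlated across probe sets at r between 0.939 and 0.955 over 15 pairs. Some arrays stood apart in ways that are set beside the results. The summed signal of 10 female germ line genes was between 304.0 and 351.1 units on the high fat arrays, against 11589, 1520 and 14843 units on normal diet replicates 1, 2 and 3. High fat diet replicate 2 had a ratio of 20.4 between the 3' and the 5' probe set of Act5C, which is read as a sign of RNA integrity, where the remaining 5 arrays had ratios of 10.5 to 13.2.

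The comparison asked whether a week of dietary fat changed the transcripts of blood cells in the head. All 3 high fat arrays lay above all 3 normal diet arrays in 5 of the 9 genes: Hml, NimC1, eater, Col4a1 and vkg. The differences were small, between 1.11-fold and 1.35-fold. In Pxn, PPO1 and PPO2 the diets overlapped. With limma, 0 of the 9 genes passed an adjusted p of 0.05 over all probe sets, as was true of 0% of all probe sets in either direction, so none of these differences is a called change. An unadjusted p under 0.05 was reached in the limma fit by 1 of the 9 genes, Hml, against 2.95% of all probe sets in the higher direction and 4.91% in the lower. Among all probe sets, every high fat array exceeded every normal diet array in 8.49% and fell short of every one in 9.25%, and among the 8326 genes above background on all arrays in 11.9% and 12.1%. In bulk RNA, the number of hemocytes, the RNA of these genes per cell and the share of other tissues cannot be told apart.

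Hml encodes hemolectin, a large secreted clotting protein that is the most used plasmatocyte marker in the fly. Its signal was 1403, 1294 and 1294 units on high fat diet replicates 1, 2 and 3, against 1029, 1116 and 832 units on normal diet replicates 1, 2 and 3. The lowest high fat array was above the highest normal diet array by 0.21 on the log2 scale, the widest such gap of the 9 genes. The mean log2 signal was 10.38 ± 0.07 in high fat heads and 9.94 ± 0.22 in normal diet heads (SD, n = 3 each). The log2 change was 0.43 (SE 0.15, 95% interval 0.046 to 0.82, limma adjusted p = 0.610), a ratio of 1.35. Of the genes above background on all arrays, 2.92% had a higher log2 change, counted with its sign, so larger falls are not included. Set against normal diet replicates 1, 2 and 3 one at a time, the mean of the high fat arrays was higher by 0.37, 0.25 and 0.68 on the log2 scale, so the size of the difference varied with the normal diet array taken.

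NimC1 and eater encode phagocytosis receptors of plasmatocytes, both built from EGF-like repeats of the Nimrod type. NimC1 had 109.3, 106.9 and 94.3 units on the high fat arrays, against 88.9, 85.4 and 84.1 units on the normal diet arrays. The groups did not overlap, and high fat diet replicate 3 lay closest to the normal diet values. The log2 change of NimC1 was 0.26 (SE 0.12, interval -0.035 to 0.56, limma adjusted p = 0.610), a ratio of 1.20. Eater, which binds bacteria, had 370.4, 355.9 and 363.5 units on the high fat arrays, against 322.0, 333.9 and 329.7 units on the normal diet arrays. Its replicates were the tightest of the 9 genes, with coefficients of variation of 1.99% in high fat heads and 1.83% in normal diet heads. The log2 change of eater was 0.15 (SE 0.10, interval -0.11 to 0.40, limma adjusted p = 0.671), a ratio of 1.11. The SE of the fit is wider than the spread of these 6 values alone because limma draws each gene's variance toward that of all probe sets. Against each normal diet array taken singly, the high fat mean was higher by 0.22 to 0.30 for NimC1 and by 0.12 to 0.17 for eater. Their differences therefore varied less with the choice of normal diet array than that of Hml.

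NimC4, also known as simu, encodes a receptor that recognises apoptotic cells and is made by embryonic macrophages and glia. It had 1.42, 23.2 and 7.71 units on the high fat arrays, against 2.89, 6.69 and 6.51 units on the normal diet arrays. Only high fat diet replicate 2 was above its own background, so no ratio is given. NimC1 and NimC4 lie on chromosome arm 2L in the Nimrod gene cluster, with NimC2 and NimC3 between them. These neighbours were measured on every array, NimC2 at 50.0, 41.9 and 77.8 units in high fat heads and 47.7, 76.8 and 53.6 units in normal diet heads. NimC3 had 254.5, 285.3 and 199.8 units in high fat heads and 234.8, 207.2 and 213.2 units in normal diet heads. In both neighbours the diets overlapped.

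**Figure D1:**
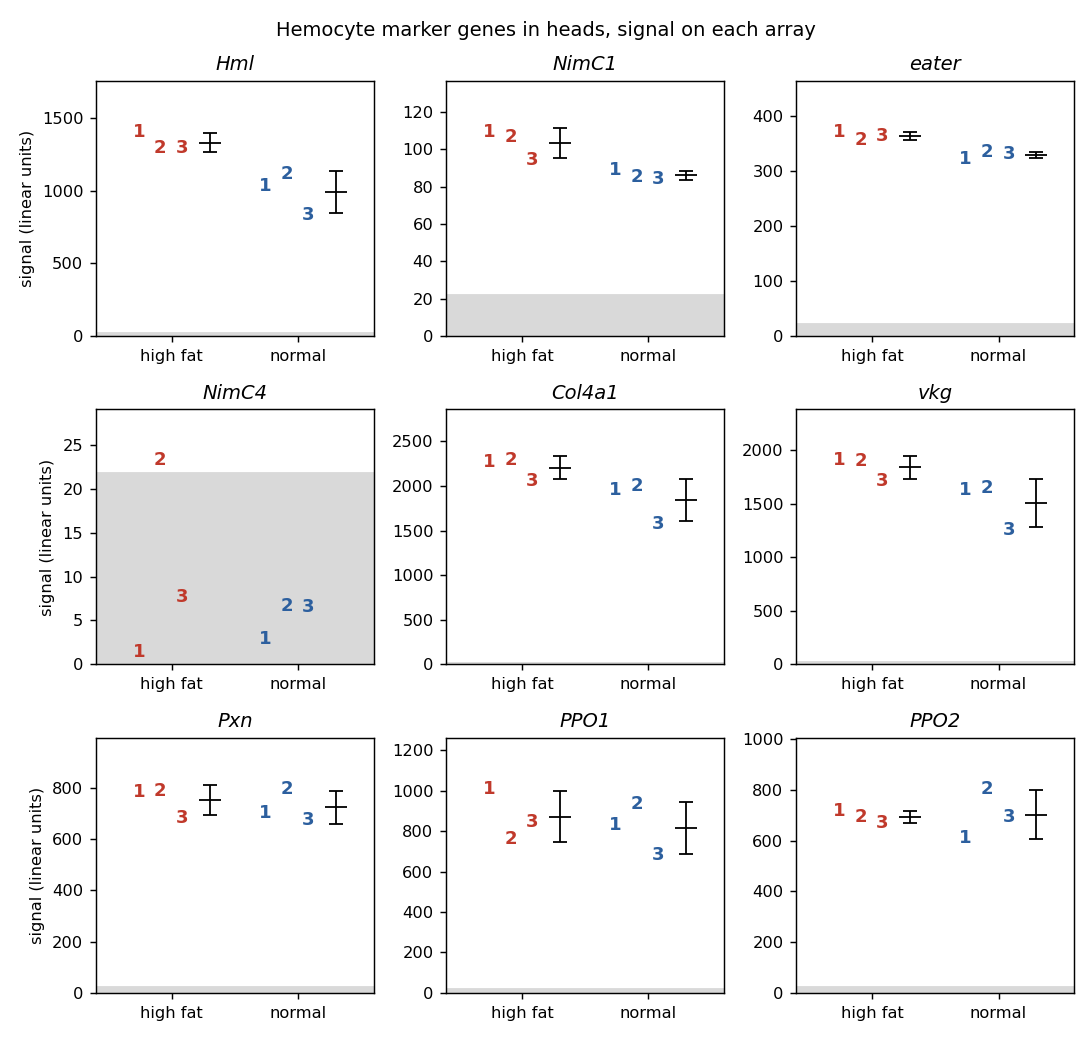
Signal of each hemocyte marker gene on each array in linear units, with digits giving the replicate number, red for high fat and blue for normal diet. Bars beside the digits are the mean and SD (n = 3 per diet; none for NimC4), and grey marks signal up to the highest background of any array. In Hml, NimC1, eater, Col4a1 and vkg the red digits all lie above the blue ones, while NimC4 lies in the grey zone on 5 arrays.

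Col4a1 and vkg encode the 2 chains of collagen IV, the network-forming collagen of basement membranes. Col4a1 had 2268, 2286 and 2054 units on the high fat arrays, against 1953, 1997 and 1572 units on the normal diet arrays. The gap between the diets was narrow, 0.041 on the log2 scale between high fat diet replicate 3 and normal diet replicate 2. Its log2 change was 0.27 (SE 0.14, interval -0.10 to 0.63, limma adjusted p = 0.622), a ratio of 1.20. vkg, whose name viking belongs to the second chain, had 1902, 1896 and 1713 units on the high fat arrays, against 1631, 1647 and 1252 units on the normal diet arrays. Its log2 change was 0.29 (SE 0.16, interval -0.11 to 0.69, limma adjusted p = 0.621), a ratio of 1.22, with a gap of 0.056 between the diets. In both genes normal diet replicate 3 stood low, and the high fat mean exceeded it by 0.48 for Col4a1 and 0.55 for vkg. Against normal diet replicates 1 and 2 the excess was 0.17 and 0.14 for Col4a1, and 0.17 and 0.16 for vkg. The Col4a1 probe set carries the suffix _s_at, which Affymetrix gives to probes that can match more than one transcript, although the annotation names a single gene.

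Pxn encodes peroxidasin, a secreted peroxidase that crosslinks collagen IV and is made by hemocytes. Unlike the collagen chains it overlapped between diets, with 782.1, 787.9 and 683.3 units on the high fat arrays, against 701.6, 795.8 and 673.0 units on the normal diet arrays. The highest value of all was normal diet replicate 2. The log2 change was 0.055 (SE 0.13, interval -0.28 to 0.39, limma adjusted p = 0.910). A second Pxn probe set was below background on all 6 arrays and gives no ratio.

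PPO1 and PPO2 encode the prophenoloxidases of crystal cells. PPO1 had 1009, 759.5 and 845.3 units on the high fat arrays, against 832.6, 934.6 and 680.4 units on the normal diet arrays. The arrays of the diets interleaved, with high fat diet replicate 1 highest and normal diet replicate 3 lowest. The log2 change of PPO1 was 0.097 (SE 0.19, interval -0.37 to 0.57, limma adjusted p = 0.882). PPO2 had 716.7, 692.5 and 668.9 units on the high fat arrays, against 611.2, 803.0 and 691.4 units on the normal diet arrays, which enclosed the high fat values on both sides. The log2 change of PPO2 was -0.011 (SE 0.14, interval -0.37 to 0.35, limma adjusted p = 0.985). The intervals of both genes include the change of 0.26 seen in NimC1. That of PPO1 also includes the 0.43 of Hml, while that of PPO2 ends below it. An interval of one gene does not compare it with another, and the difference between crystal cell and plasmatocyte genes was not tested.

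**Figure D2:**
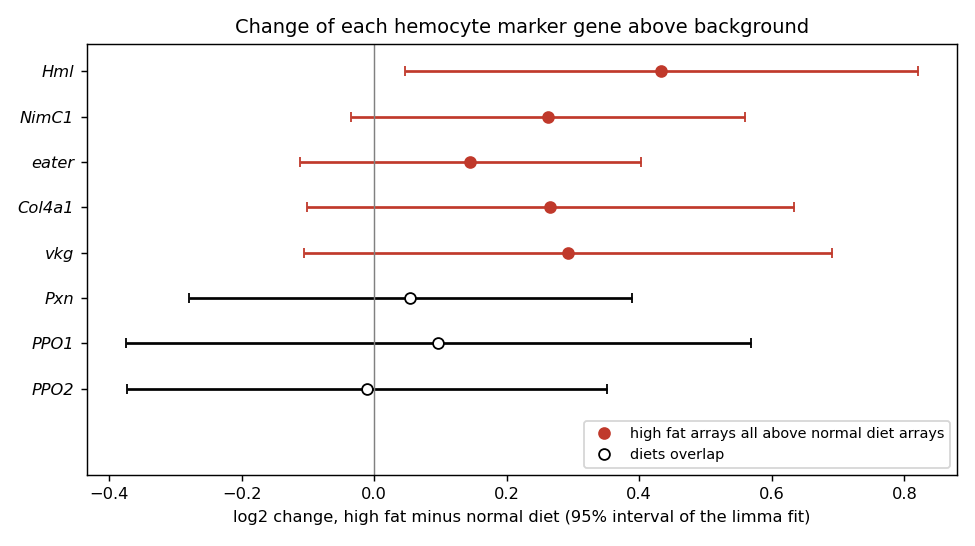
Log2 change, high fat minus normal diet, of the 8 hemocyte marker genes above background on all arrays, with the 95% interval of the limma fit. Filled red points mark genes whose high fat arrays all lay above the normal diet arrays, and only the interval of Hml, 0.046 to 0.82, lies wholly above 0 before adjustment.

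The median change of these 8 genes was 0.20, with 7 of 8 higher in the mean on the high fat diet. Over the 8326 genes above background on all arrays the median was -0.030, with quartiles at -0.20 and 0.13, and 44.6% were higher in the mean. The members were chosen with results of these data known, so these medians are a description and carry no test. Taking each normal diet array singly, the median excess of the high fat mean over the 8 genes was 0.17, 0.13 and 0.32 for normal diet replicates 1, 2 and 3. It was smallest against normal diet replicate 2. The germ line signal of these arrays stood at 11589, 1520 and 14843 units, and its part in the result was not tested. With normal diet replicate 2 alone against the high fat arrays, a comparison added after seeing the data that rests on 1 normal diet array, Pxn was at -0.086, PPO1 at -0.11 and PPO2 at -0.21, that is, higher on the normal diet array. Leaving out high fat diet replicate 2, the array with the highest Act5C ratio, the median change of the 8 genes was 0.21.

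Across arrays the members fell into different profiles. Normal diet replicate 3 was the lowest array in 6 of the 8 genes and normal diet replicate 1 in eater and PPO2. High fat diet replicate 1 was the highest in 5. Normal diet replicate 2 was the highest array for Pxn and PPO2. Pairwise correlations of log2 signal over the 6 arrays were computed for all 28 pairs of the 8 genes. Of these, 27 were positive, with a median r of 0.65 and a range from -0.039 to 0.998. A diet difference shared by a pair of genes counts toward these coefficients. The share of positive pairs among all genes was not computed.

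Col4a1 and vkg tracked each other most closely. Pearson's r was 0.998 (two-sided exact permutation p = 0.00278 over 720 orderings, Benjamini-Hochberg adjusted p = 0.0389 over 28 pairs) and Spearman's rho was 0.943 (exact permutation p = 0.0167, adjusted p = 0.117). Without the 2 arrays farthest from the median of Col4a1, r was 0.997, and after subtracting each diet's mean it was 0.996. Each diet alone has too few arrays for a correlation. Out of 8325 other genes, vkg ranked first in correlation with Col4a1, and Col4a1 first with vkg. The genes are immediate neighbours on chromosome arm 2L, with 0 annotated genes between them in the Release 6 RefSeq table. Genes measured on one array share its scaling and RNA, and 6.52% of all genes compared had r over 0.9 with Col4a1.

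Hml was also correlated with the collagen genes, with r = 0.950 to vkg (exact permutation p = 0.00278, adjusted p = 0.0389; rho 0.943, exact permutation p = 0.0167, adjusted p = 0.117). Without the 2 arrays farthest from the median of Hml r was 0.820, and after subtracting the diet means it was 0.922. Hml and Col4a1 gave r = 0.950 (exact permutation p = 0.00556, adjusted p = 0.0519). In correlation with Hml over 8325 genes, Col4a1 ranked 142 and vkg 144, and 5.43% of the genes had r over 0.9. The pair of crystal cell genes was less alike, with r = 0.372 between PPO1 and PPO2 (exact permutation p = 0.463, adjusted p = 0.599). PPO2 had r between -0.039 and 0.17 with Hml, NimC1, eater, Col4a1 and vkg. Of the 28 pairs, 2 passed an adjusted p of 0.05 by Pearson's r, those of vkg with Col4a1 and with Hml, and 0 by Spearman's rho. The permutations moved arrays across both diets, so a diet difference shared by a pair of genes counts toward these p-values. No p-value was computed after subtracting the diet means.

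**Figure D3:**
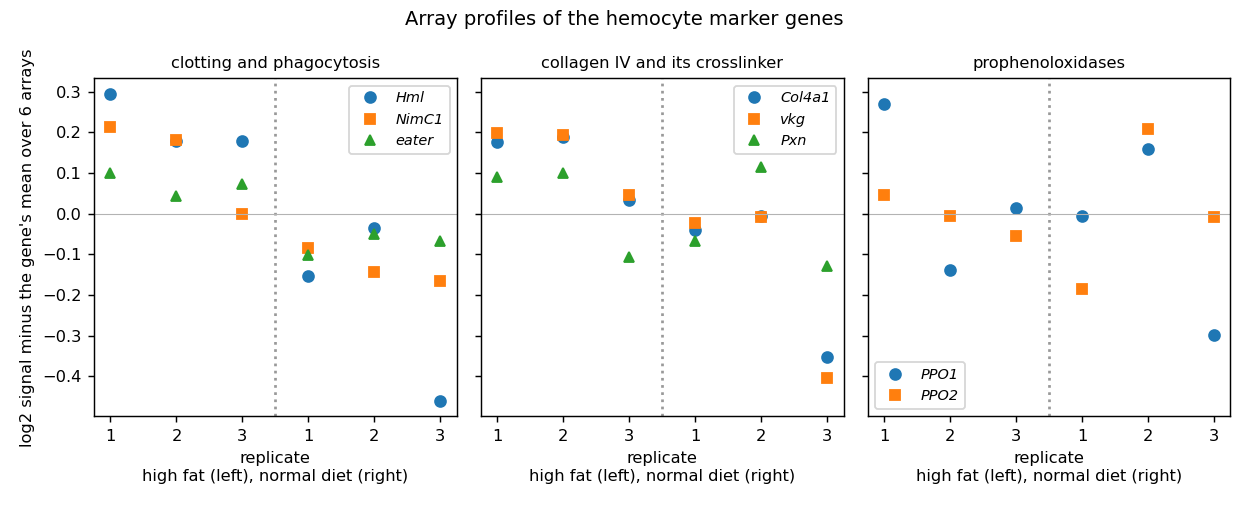
Log2 signal of each gene on each array minus that gene's mean over the 6 arrays, high fat replicates left of the dotted line and normal diet replicates right. The symbols of Col4a1 and vkg nearly coincide on every array, whereas PPO1 and PPO2 differ from array to array.

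The genes outside the 9 whose array profile was most like a marker were mostly uncharacterised. For Hml they were CG32628, CG3556 and Tomosyn, an inhibitor of synaptic vesicle release (r = 0.999, 0.996 and 0.994 over 6 arrays). For Pxn they were CG17264, ninaG, an oxidoreductase of visual pigment synthesis, and CG2063 (0.990, 0.984 and 0.971). For Col4a1 they were CG6465, CG10126 and CG14153 (0.996, 0.994 and 0.993), and for vkg CG6465, SP2353 and CG40467 (0.997, 0.997 and 0.996). With 6 arrays and 8325 genes compared, coefficients of this size are descriptive.

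Other plasmatocyte genes were examined from a separate list. Of 17 measured, 14 were above background on all arrays, and gcm, gcm2 and Sr-CII were below it on all. Among the 14, 10 had a higher mean and 4 a lower one, the median change was 0.098, and the high fat arrays lay above the normal diet arrays in 3 (NimB4, drpr and ush), against the 11.9% of all such genes. With limma 0 passed after adjustment. drpr, the engulfment receptor Draper of macrophages and glia, had 3324, 3527 and 3201 units in high fat heads, against 2933, 2940 and 2538 units in normal diet heads (log2 change 0.26, SE 0.12, limma adjusted p = 0.610). NimA, a Nimrod family member, had 33.0, 41.8 and 43.8 units in high fat heads and 17.5, 37.9 and 22.4 units in normal diet heads. On normal diet replicates 1 and 3 NimA was close to the background of those arrays, 15.2 and 21.8 units. The diets overlapped in NimA (log2 change 0.68, SE 0.32, limma adjusted p = 0.610). srp, the GATA factor Serpent that specifies hemocytes and fat body, overlapped as well, with 2114, 1929 and 2088 units in high fat heads and 2471, 2553 and 2008 units in normal diet heads (log2 change -0.19, SE 0.14, limma adjusted p = 0.683). It was chosen for its role and after its values were seen.

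Genes of crystal cells and lamellocytes went both ways. Of 8 measured, 7 were above background on all arrays, 4 with a higher and 3 with a lower mean, the diets did not overlap in 2 on the high side and 2 on the low side, and 0 passed after adjustment. PPO3, the prophenoloxidase of lamellocytes, had 44.7, 39.3 and 30.8 units in high fat heads, against 55.3, 57.9 and 79.0 units in normal diet heads. Its log2 change was -0.74 (SE 0.22, limma adjusted p = 0.610), the opposite direction to NimC1 and eater, a difference that was not tested. msn, a kinase used as a lamellocyte reporter, had 875.1, 665.0 and 861.7 units in high fat heads, against 1250, 1104 and 903.0 units in normal diet heads (log2 change -0.44, SE 0.19, limma adjusted p = 0.610). In both genes every high fat array was below every normal diet array, as in 12.1% of genes above background. The genes on the high side were lz, the Runx factor of crystal cells that also acts in the eye, at 0.23, and atilla, a lamellocyte surface protein, at 0.27. On that side lay 11.9% of genes above background. No cells were sorted, so the head signals of PPO3, msn, lz and atilla cannot be assigned to blood cells.

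Of the 9 measured genes of the melanisation cascade, the serine proteases, serpins and other factors that control and complete prophenoloxidase activation and clotting, 6 had a higher mean, 3 a lower one, and 0 passed. Tig, the extracellular matrix protein tiggrin, was the one gene of that list without overlap. Of all genes above background, 11.9% had no overlap on the high side and 12.1% on the low side. Tig had 683.9, 725.3 and 709.8 units in high fat heads, against 482.5, 610.2 and 548.5 units in normal diet heads (log2 change 0.37, SE 0.13, limma adjusted p = 0.610). yellow-f2, a dopachrome-converting enzyme, was at -0.22 (SE 0.14, limma adjusted p = 0.649), with overlap.

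The basement membrane list, which holds the laminins and other partners of collagen IV, had 12 measured genes, all above background on every array. Of these 9 had a higher mean, 3 a lower one, the median change was 0.18, the diets did not overlap in 3 on the high side and 0 on the low side (11.9% and 12.1% of all genes above background), and 0 passed. Mp, the multiplexin collagen, had 2214, 2652 and 2091 units in high fat heads, against 1949, 1923 and 1377 units in normal diet heads (log2 change 0.42, SE 0.20, limma adjusted p = 0.610). PH4alphaEFB, a prolyl hydroxylase that modifies collagen IV chains before secretion, had 1792, 1755 and 1664 units in high fat heads, against 1537, 1546 and 1225 units in normal diet heads (log2 change 0.28, SE 0.14, limma adjusted p = 0.614). As with Col4a1 and vkg, normal diet replicate 3 was the lowest array in both. trol, the perlecan proteoglycan, also had no overlap, at 0.29. SPARC, a collagen-binding protein of hemocytes and fat body, was at -0.027 and was chosen after its values were seen.

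Markers of other head tissues were set beside the hemocyte genes on the same arrays. Among genes above background on all arrays, the high fat arrays exceeded the normal diet arrays in 5 of 8 muscle genes, 4 of 8 neuron genes, 1 of 8 glia genes and 0 of 9 fat body genes, against 5 of 8 hemocyte markers and 11.9% of all such genes. The median changes were 0.27 for muscle, 0.25 for neurons, 0.16 for glia and 0.0052 for fat body, against 0.20 for the hemocyte markers. The summed muscle signal was between 13058 and 14239 units in high fat heads and between 9491 and 11442 units in normal diet heads. The summed neuron signal was between 19113 and 19537 units in high fat heads and between 15372 and 17751 units in normal diet heads. Both sums were lowest on normal diet replicate 3, as was that of the 9 hemocyte markers. The hemocyte sum lay between 7724 and 8563 units in high fat heads and between 6121 and 7720 units in normal diet heads. Its brightest members were Col4a1 and vkg, which the fat body also expresses. Whether the hemocyte markers differed from muscle or neuron genes was not tested, and the part of these tissues in the result was not tested.

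Fat body markers were set beside them because that tissue also makes collagen IV. Their summed signal, most of it from a few very bright genes such as apolpp, FASN1 and the yolk protein genes, was between 149961 and 158727 units in high fat heads and between 130682 and 166059 units in normal diet heads, lowest on normal diet replicate 1 and highest on normal diet replicate 3. The part of the fat body in the values of Col4a1 and vkg was not tested. Of 10 fat body genes measured, Fbp1 was below background throughout. Lsp2, a storage protein, was at -0.41 (SE 0.18, limma adjusted p = 0.610) and the lipase bmm at -0.25 (SE 0.15, limma adjusted p = 0.634), with overlap. For Lsp2 every high fat array lay below every normal diet array, as in 1 of the 9 fat body genes and 12.1% of all genes above background. The summed glia signal was between 24989 and 25357 units in high fat heads and between 22807 and 25004 units in normal diet heads, with the glial homeobox gene repo at 0.29 and wrapper, a midline glia protein, at 0.27. The named neuron genes were the calcium channel gene cac at 0.41 and the GABA receptor gene Rdl at 0.33, and the named muscle genes were Tm2 at 0.49 and bt at 0.38. None of these passed after adjustment. Of the 10 germ line genes, 4 were above background on all arrays and all 4 had lower high fat arrays, with CycB at -5.35 and RpS5b at -3.86. vas was below background on every array.

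**Figure D4:**
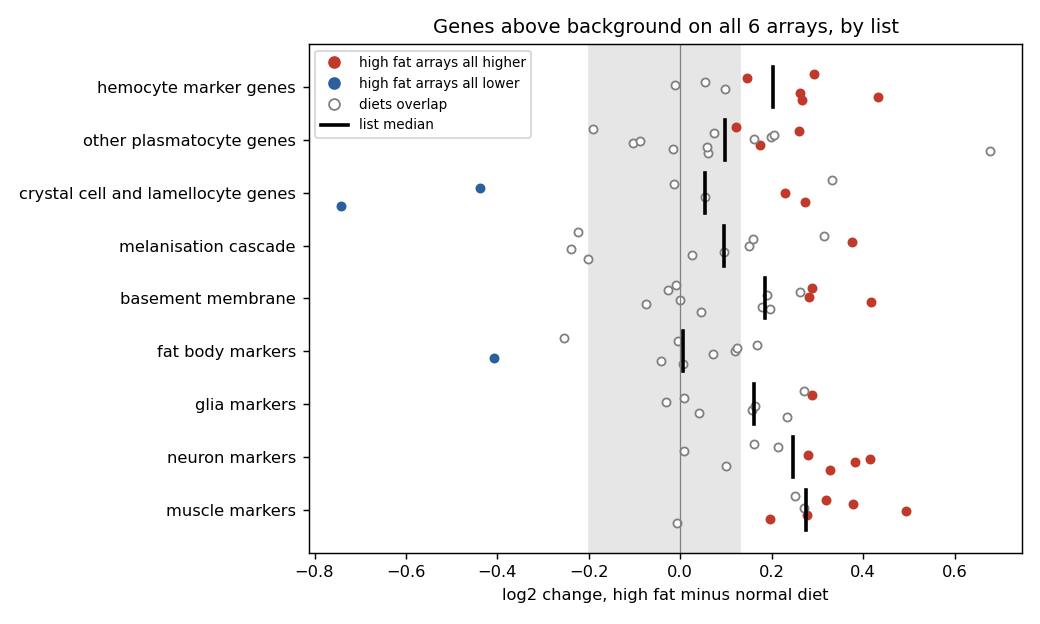
Log2 change, high fat minus normal diet, of genes above background on all 6 arrays, grouped by list, with a black bar at each list's median and a grey band between the quartiles of all such genes (-0.20 to 0.13). Filled points mark genes whose diets do not overlap; germ line genes are off the scale and not drawn. The hemocyte markers lie between -0.011 and 0.43, and the medians of the neuron and muscle lists, 0.25 and 0.27, lie to the right of theirs, 0.20.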

How the data were processed

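The deposited table holds probe set signal intensity on a linear scale, 1 column per array, made by the authors with Affymetrix Expression Console, per the submitters' processing notes; no version or summarisation method was found in the labels. Trimmed by 2% at each end, each array averaged 500.0, and array medians ranged from 59.0 to 86.2. Of 18952 probe sets, 183 controls were left out. Values under 1 (2010 of them) were set to 1 and log2 was taken, with no further normalization. A linear model in limma 3.58.1 (R 4.3.3) was fitted to every probe set over all 6 arrays, high fat minus normal diet, without covariates, Benjamini-Hochberg adjusted over 18769 probe sets, and the fit was tested on simulated data. Of these, 13647 had 1 gene symbol, 402 several and 4720 none; only the first kind gave gene names. The number of arrays limits the precision: an exact two-sided test of 3 against 3 cannot go below p = 0.1.

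The members, lists, tests and background definition were chosen with earlier results of these data known. Every marker is named, and of each other list the 2 genes above background with the smallest unadjusted p, since none passed. Other genes were named after their values were seen. Alternatives were quantile normalization, median centring, a floor or pseudocount of 16, trend and robust moderation, leaving out dimmer probe sets, averaging a gene's probe sets, leaving out each array, and a replicate block.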

Additional observations from a re-analysis of the deposited data

How the results depend on the processing

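Under all 15 alternatives, 0 hemocyte markers passed an adjusted p of 0.05 by limma. Quantile normalization, which could have made the diets overlap in the 5 genes without overlap, left the same 5 genes. Median centring left them too, but it could not have made them overlap. Array medians were 65.7, 59.0 and 67.2 units on the high fat arrays and 86.2, 67.0 and 77.4 units on the normal diet arrays. Centring therefore raised the high fat values against most normal diet values. Hml ranged from 0.25 to 0.70, with adjusted p between 0.266 and 0.978. Median centring raised the median of all probe sets by 0.27 and that of the markers to 0.47. The sign of the genes near 0 or near background was not stable, and the cause was not tested. PPO2 was at 0.046 after quantile normalization and 0.26 after median centring. Leaving out 1 array, PPO2 ranged from -0.11 to 0.091, PPO1 from -0.028 to 0.20 and NimC4 from -0.60 to 1.42, and the median of the markers from 0.15 to 0.23. With normal diet replicate 2 alone against the high fat arrays, NimC4 was at -0.079, Pxn at -0.086 and PPO1 at -0.11. Over all probe sets, trend and robust moderation called 26, and leaving out 1 array called 0 to 167, the highest without normal diet replicate 2. The correlation of Col4a1 with vkg stayed between 0.997 and 0.999. The deviations of same-numbered arrays from their diet means correlated at -0.074, 1.81e-04 and 0.029, and those of differently numbered arrays between -0.097 and 0.11. With 3 arrays per diet, these values cannot show whether same-numbered arrays were paired. With the replicate block the markers' median was 0.20, with 0 calls. Signal near background limits NimC4 and NimA.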
